A study of Homo sapiens with 16 samples.

Results

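The 8 genes FUT9, PRRX1, TRPC4, WBP5, IAH1, NCR3LG1, STXBP2 and KLF4 were examined as a set because their RNA had been seen to be lost or lowered in 2 different knockouts of the same cell line. They were picked by name for that fall, out of 33121 entries of the count table. The falls themselves are therefore given below as a description, without a test. All 8 passed the filter on low counts, which left 15569 tested genes.

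Poly-A RNA was sequenced as paired ends in HAP1 cells, a near-haploid, adherent human line derived from a chronic myeloid leukaemia line. The 16 libraries formed 4 groups of 4. The SLC30A10 knockout (genotype SLC30A10_delta) is labelled as deleted for the gene of a manganese exporter, and its control set (SLC30A10+/+) was wild type for that gene. The second knockout is labelled as deleted for another gene and was paired with the second control set, wild type for that other gene. All cells were kept in IMDM with 10% serum, penicillin and streptomycin, with no further agent in the labels. A single cell line identifier covers both control sets, and each knockout has an identifier of its own. Each deletion is thus represented by a single line, and an effect of the deletion and a difference between lines cannot be told apart. Nothing in the labels says that the libraries of a group came from separate cultures, so p-values measure only the spread between these libraries, which may be technical.

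The genes have unlike roles and are not known as a single pathway. FUT9 makes the fucosylated Lewis x antigen of cell surface glycans, TRPC4 forms a calcium-permeable channel, and NCR3LG1 is a surface ligand that natural killer cells recognise on tumour cells. PRRX1 and KLF4 are transcription factors, of mesenchyme and of epithelia and pluripotent cells, respectively. STXBP2 binds syntaxins during vesicle fusion, IAH1 is a predicted esterase, and WBP5 (TCEAL9 in RefSeq) belongs to a family of small X-linked proteins.

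The genes lie on 8 chromosomes. In RefSeq coordinates (GRCh38.p14) these were FUT9 at chr6:96015974-96215612, PRRX1 at chr1:170662768-170739421, TRPC4 at chr13:37632063-37869772, WBP5 at chrX:103356506-103358462, IAH1 at chr2:9473812-9512408, NCR3LG1 at chr11:17351800-17381661, STXBP2 at chr19:7629793-7647873 and KLF4 at chr9:107484852-107489769. No chromosome held more than 1 of them. The sequence before the start is shown for 4 genes, to set FUT9 and WBP5, at or near 0 counts in both knockouts, beside NCR3LG1 and KLF4, which were lowered. Each is read 5′ to 3′ along the gene's strand from the RefSeq promoter table of GRCh38.p14, without the transcribed part, and capitals mark CG dinucleotides.
FUT9, chr6:96015724-96015973, plus strand: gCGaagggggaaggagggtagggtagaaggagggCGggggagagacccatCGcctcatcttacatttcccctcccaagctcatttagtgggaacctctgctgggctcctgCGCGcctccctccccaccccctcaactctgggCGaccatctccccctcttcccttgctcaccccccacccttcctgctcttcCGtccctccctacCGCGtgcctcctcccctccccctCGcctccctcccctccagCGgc
WBP5, chrX:103356256-103356488, plus strand: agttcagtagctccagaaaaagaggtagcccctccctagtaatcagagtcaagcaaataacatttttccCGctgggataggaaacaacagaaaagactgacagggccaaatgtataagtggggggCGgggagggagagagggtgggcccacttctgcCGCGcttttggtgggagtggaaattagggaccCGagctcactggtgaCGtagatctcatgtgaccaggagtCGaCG
NCR3LG1, chr11:17351550-17351725, plus strand: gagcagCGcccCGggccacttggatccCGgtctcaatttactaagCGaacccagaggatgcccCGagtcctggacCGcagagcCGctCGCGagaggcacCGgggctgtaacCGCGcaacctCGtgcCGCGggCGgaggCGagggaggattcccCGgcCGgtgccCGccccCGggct
KLF4, chr9:107489770-107490019, minus strand: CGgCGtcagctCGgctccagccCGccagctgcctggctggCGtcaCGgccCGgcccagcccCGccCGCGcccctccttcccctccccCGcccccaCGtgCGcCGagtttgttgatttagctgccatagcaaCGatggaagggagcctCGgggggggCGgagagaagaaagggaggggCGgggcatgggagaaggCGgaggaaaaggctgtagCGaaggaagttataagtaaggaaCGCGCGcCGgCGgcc

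The stretch of FUT9 held 11 CG dinucleotides in 250 bases and that of WBP5 held 8 in 233 bases. By comparison, NCR3LG1 held 21 in 176 bases and KLF4 held 25 in 250 bases. Relative to the number that the C and G content alone would give, CG was present at 0.446 in FUT9 and 0.518 in WBP5, against 0.931 in NCR3LG1 and 0.840 in KLF4.

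The levels of all 8 genes were then followed through the 16 libraries. Levels are given as counts and as CPM, a count divided by the scaled size of its library and multiplied by 1000000. In bulk RNA, fewer cells expressing a gene and less RNA per cell cannot be told apart.

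**Figure D1:**
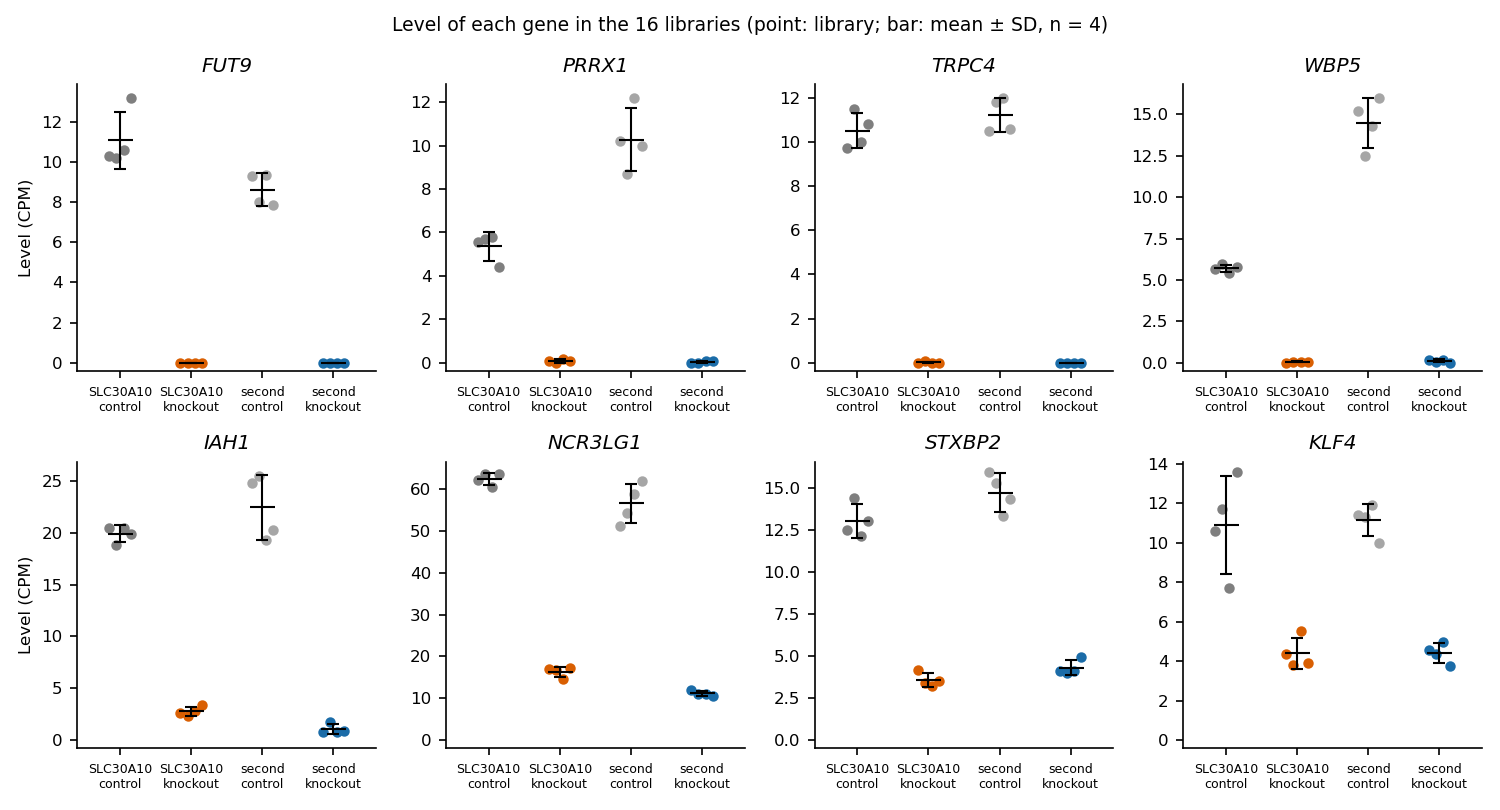
Level of each gene (CPM, vertical axis from 0) in the 4 libraries of each group, with points for libraries and bars for mean ± SD (n = 4). FUT9, PRRX1, TRPC4 and WBP5 lie at or near 0 in all 8 knockout libraries, while IAH1, NCR3LG1, STXBP2 and KLF4 keep between 4.56% and 40.3% of the level of their control set.

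FUT9, the fucosyltransferase, was the gene without a single count in either knockout. In the SLC30A10 control set it had 169, 168, 174 and 217 counts, and in the SLC30A10 knockout it had 0 in each library. In the second control set it had 152, 132, 155 and 129 counts, and again 0 in each library of the second knockout. Every control library was thus far above every knockout library. The control means were 11.1 ± 1.44 CPM (SD, n = 4) and 8.62 ± 0.812 CPM (SD, n = 4). With a floor of 3 counts per library for a gene at 0, FUT9 lay at least 59.6-fold below its control in the SLC30A10 knockout and at least 47.0-fold lower than its control in the other.

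TRPC4, the channel subunit, had 1 count in all 8 knockout libraries together. The SLC30A10 control libraries held 160, 190, 164 and 177 counts, and the SLC30A10 knockout libraries held 0, 1, 0 and 0. The second control libraries held 172, 195, 199 and 174 counts, and the second knockout libraries held 0. The control sets, at 10.5 ± 0.811 and 11.2 ± 0.788 CPM (SD, n = 4 each), overlapped with each other and not with the knockouts. Against its control, the second knockout held at least 61.2-fold less TRPC4. In the SLC30A10 knockout the ratio of summed counts was 679-fold, with an exact 95% interval of 121 to 26857 that covers counting error only. That ratio rests on the lone count in library 2 of the knockout, without which TRPC4 was at 0 in the group. A lower bound against a floor and a ratio with its counting interval are different quantities, and they do not order the knockouts.

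PRRX1, the mesenchymal homeobox factor, had 91, 94, 95 and 72 counts in the SLC30A10 control set and 1, 0, 3 and 1 in the SLC30A10 knockout. The second control set held 167, 143, 203 and 165 counts, and the second knockout held 0, 0, 1 and 1. No knockout library exceeded 3 counts, the floor used here for a single library. The control means were 5.36 ± 0.654 and 10.3 ± 1.47 CPM (SD, n = 4 each). The summed counts were 69.2-fold lower in the SLC30A10 knockout (exact 95% interval 29.4 to 214) and 336-fold lower in the second knockout (92.8 to 2783). The intervals overlap. The log2 value in the SLC30A10 knockout moved from -5.98 to -6.77 without knockout library 3, which held 3 of the 5 counts.

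WBP5, of the TCEAL and BEX family, followed the same course from unequal controls. Its SLC30A10 control libraries held 93, 98, 89 and 95 counts and the SLC30A10 knockout libraries 0, 1, 1 and 1. Its second control libraries held 249, 207, 237 and 263 counts and the second knockout libraries 3, 1, 3 and 0. The control means were 5.71 ± 0.221 and 14.5 ± 1.48 CPM (SD, n = 4 each). The ratio of summed counts was 123-fold in the SLC30A10 knockout (exact 95% interval 41.7 to 598) and 136-fold in the second knockout (65.5 to 338). Against both control sets pooled, the log2 value in the SLC30A10 knockout went from -6.72 to -7.39 and that in the second knockout from -6.98 to -6.31.

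The remaining 4 genes were lowered and still counted in every knockout library. IAH1, the esterase, was lowered most. It had 337, 310, 337 and 327 counts in the SLC30A10 control set and 42, 38, 46 and 54 in the SLC30A10 knockout. It had 405, 421, 321 and 334 counts in the second control set and 12, 28, 12 and 15 in the second knockout. The second knockout was thus below the SLC30A10 knockout without overlap, while the control sets overlapped. Mean levels went from 20.0 ± 0.810 to 2.79 ± 0.426 CPM and from 22.5 ± 3.12 to 1.02 ± 0.468 CPM (SD, n = 4 each), which left 14.0% and 4.56% of the control level. The fitted log2 differences were -2.84 ± 0.13 (SE) and -4.44 ± 0.16 (SE), and they differed by 1.61 ± 0.25 (SE). A difference between the knockout effects was called for 31.3% of all tested genes, and for IAH1 it is a description, since both effects entered the choice.

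NCR3LG1, the natural killer cell ligand, had 1021, 1048, 992 and 1044 counts in the SLC30A10 control set and 274, 268, 238 and 276 in the SLC30A10 knockout. The second control set held 839, 898, 975 and 1021 counts and the second knockout 192, 180, 181 and 175. Each knockout was separate from both control sets, and the knockouts were separate from each other. Means went from 62.5 ± 1.50 to 16.4 ± 1.20 CPM and from 56.6 ± 4.71 to 11.1 ± 0.586 CPM (SD, n = 4 each). The folds were 3.82 and 5.08, with fitted log2 differences of -1.93 ± 0.06 and -2.35 ± 0.07 (SE) that differed by 0.41 ± 0.10 (SE).

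STXBP2, the syntaxin-binding protein, had 205, 237, 198 and 213 counts in the SLC30A10 control set and 67, 54, 52 and 56 in the SLC30A10 knockout. In the second experiment it had 260, 252, 220 and 236 counts in the control set and 66, 65, 68 and 82 in the knockout. The knockouts overlapped with each other, as did the control sets. Levels went from 13.0 ± 1.01 to 3.55 ± 0.428 CPM and from 14.7 ± 1.15 to 4.30 ± 0.450 CPM (SD, n = 4 each), which is 3.66-fold and 3.42-fold lower. The fitted log2 differences, -1.87 ± 0.11 and -1.77 ± 0.10 (SE), lay -0.10 ± 0.15 (SE) apart.

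KLF4, the Krüppel-like factor, was lowered least. It had 174, 193, 126 and 223 counts in the SLC30A10 control set and 70, 61, 90 and 63 in the SLC30A10 knockout. The second control set held 186, 187, 197 and 165 counts and the second knockout 73, 71, 82 and 62. Its SLC30A10 control set had the widest relative spread of the 8 genes in any control set, with a coefficient of variation of 22.7%, and even so its lowest library, 7.68 CPM, lay above the highest knockout library, 5.52 CPM. Means went from 10.9 ± 2.47 to 4.40 ± 0.786 CPM and from 11.2 ± 0.791 to 4.41 ± 0.504 CPM (SD, n = 4 each). Both knockouts kept nearly equal shares of their control level, 40.3% and 39.5%, and the fitted log2 differences of -1.31 ± 0.14 and -1.34 ± 0.14 (SE) lay 0.03 ± 0.21 (SE) apart.

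For each of the 8 genes, every knockout library was below every control library of its experiment. Since the genes were picked for a fall in both knockouts, that count adds nothing to the choice. Among all tested genes, 18.6% showed such a separation in the SLC30A10 knockout, 8.69% in the second knockout and 2.23% in both. By edgeR's quasi-likelihood test with Benjamini-Hochberg adjustment, 20.2% of tested genes were called lower in the SLC30A10 knockout, 7.03% in the second knockout, and 327 genes (2.10%) in both, at an adjusted p under 0.05.

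Ordered by the smaller of the 2 fitted falls, FUT9 ranked 1, TRPC4 3, WBP5 7, PRRX1 8, IAH1 22, NCR3LG1 35, STXBP2 38 and KLF4 48 among those 327 genes. The set is thus drawn from the upper part of the order and is not its top. The fitted falls of FUT9, TRPC4, WBP5 and PRRX1 depend on the prior count, so their exact ranks do too. Among genes averaging at least 2 CPM over the libraries of each experiment, the first 8 were FUT9, GABRA5, TRPC4, WBP5, PRRX1, SHISA2, IAH1 and DLK1, which holds 5 of the set. Among the ranks between were GABRA5, a receptor subunit for the transmitter GABA, DCAF12L2 and the noncoding LINC00693, which are named here after their values were seen. Ranks 9 to 13 were held by EFEMP1, AMBN, LOC100505817, ZNF208 and KIF5A. Few genes had no more than 3 counts in any knockout library while each control set averaged 2 CPM or more. There were 13 such genes (0.0835%) in the SLC30A10 knockout, 19 (0.122%) in the second knockout and 8 (0.0514%) in both. Those 8 included FUT9, PRRX1, TRPC4 and WBP5, and also GABRA5, DCAF12L2 and AMBN. GABRA5 had 88 to 115 and 64 to 75 counts in the control sets, and DCAF12L2 had 51 to 63 and 30 to 50. Both had 0 counts in all 8 knockout libraries.

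**Figure D2:**
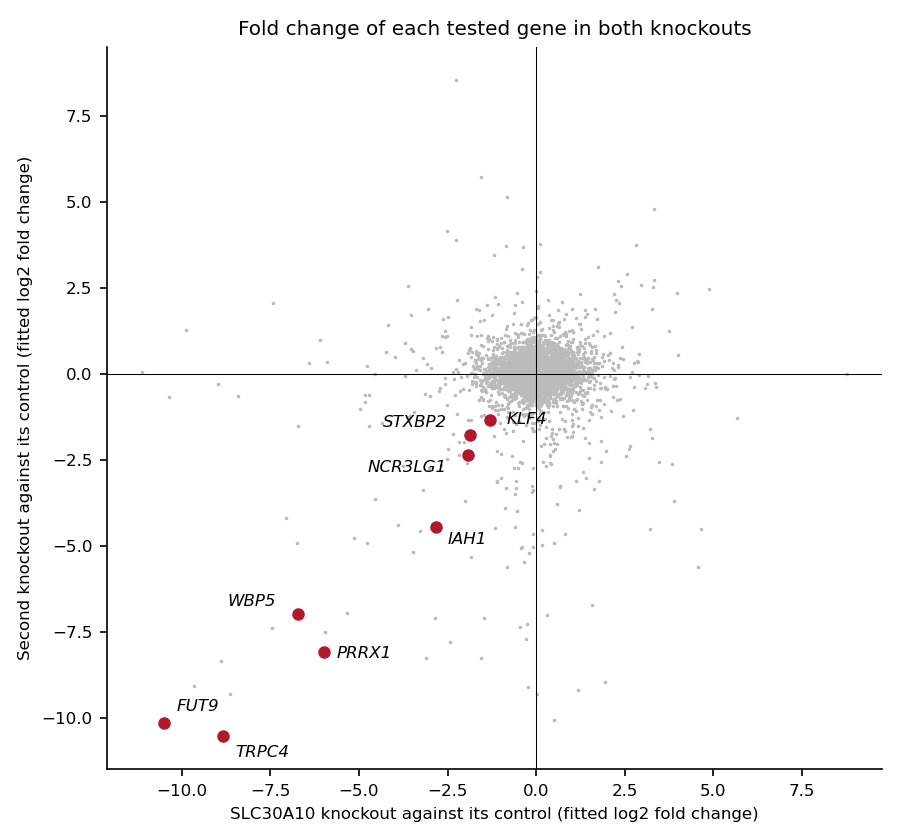
Fitted log2 fold change of each of 15569 tested genes in the SLC30A10 knockout (horizontal) and the second knockout (vertical), each against its own control set, with the 8 genes in red. They spread along the lower left, from KLF4 at -1.31 and -1.34 to FUT9 at -10.50 and -10.14. The fitted values of FUT9, TRPC4, PRRX1 and WBP5, at or near 0 counts, depend on the model's prior count and are not sizes of a fall.

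The control sets allow a comparison that did not choose the genes, although the falls were measured against the same libraries. It asks how far the level of each gene varied between cells of the same line identifier that carried neither deletion. WBP5 was 2.54-fold and PRRX1 1.92-fold higher in the second control set than in the SLC30A10 control set. Their log2 differences, SLC30A10 control minus second control, were -1.34 ± 0.11 (SE, adjusted p = 2.08e-09) and -0.94 ± 0.13 (SE, adjusted p = 3.05e-06) by edgeR's quasi-likelihood test. FUT9 went the other way, at 0.36 ± 0.11 (SE, adjusted p = 0.0122 by edgeR). In these 3 genes the libraries of the control sets did not overlap, as in 36.3% of all tested genes. NCR3LG1 also passed the threshold, at 0.14 ± 0.06 (SE, adjusted p = 0.0475 by edgeR), with overlapping libraries.

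Neither of the last 2 calls held under each alternative. Without SLC30A10 control library 4, the highest of its group, FUT9 had an adjusted p of 0.0522 by edgeR, and NCR3LG1 missed the threshold in 6 of 15 alternatives, with adjusted p from 0.0109 to 0.167. TRPC4 (-0.09 ± 0.10, adjusted p = 0.464), IAH1 (-0.17 ± 0.10, adjusted p = 0.157), STXBP2 (-0.18 ± 0.08, adjusted p = 0.0972) and KLF4 (-0.03 ± 0.12, adjusted p = 0.855) did not pass. In all, 4 of 8 genes were called between the control sets, beside 39.3% of tested genes, so the share among the 8 was near that of the background. The order of the groups followed from this. Both control sets stood above both knockouts for every gene. The control sets were separate for FUT9, PRRX1 and WBP5, beside 36.3% of all tested genes, and overlapping for the other 5. The knockouts were separate from each other for IAH1 and NCR3LG1. The share of all tested genes with separate knockouts was not counted.

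Genes known to act with each of the 8, or to belong to its family, were compared next. Of 97 such genes tested, 54 (55.7%) were called in the SLC30A10 knockout, 19 lower and 35 higher, beside 41.4% of all tested genes. In the second knockout 32 (33.0%) were called, 14 lower and 18 higher, beside 13.7% of all. Their median log2 differences were 0.08 and -0.02. Between the control sets 47 (48.5%) of these genes were called, beside 39.3% of all. A difference from one control set need not hold against the other. The lists were drawn up with earlier results of these data known, and these counts are a description.

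**Figure D3:**
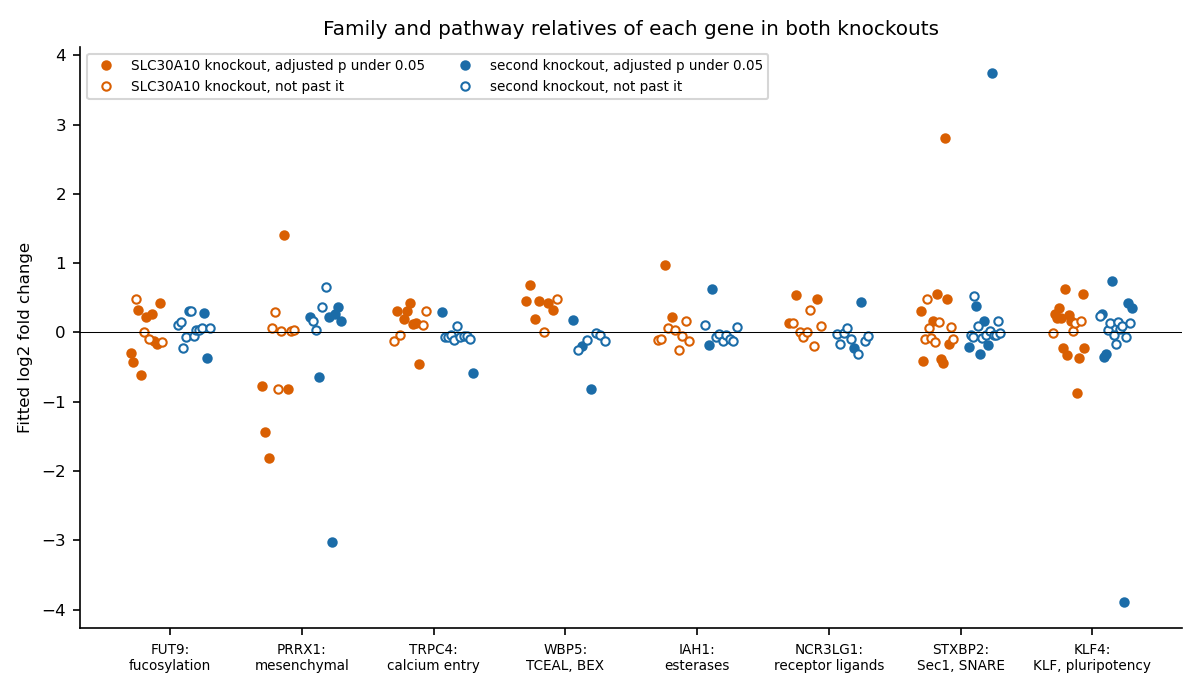
Fitted log2 fold change (vertical) of the tested family and pathway relatives of each gene, with orange points for the SLC30A10 knockout and blue points for the second knockout, filled where the adjusted p was under 0.05. Most lie within 1 of 0 on the log2 scale. The points farthest from 0 are STXBP6 at 2.81 and 3.74, TWIST2 at -3.02 and LIN28A at -3.89.

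Around FUT9, 13 fucosylation genes were tested, with 5 lower and 4 higher in the SLC30A10 knockout and 1 lower and 2 higher in the second knockout. FUT11, another fucosyltransferase, fell in the SLC30A10 knockout by 0.61 on the log2 scale (SE 0.10, adjusted p = 1.96e-05 by edgeR) and rose in the second knockout by 0.31 (SE 0.09, adjusted p = 0.0159). SLC35C1, the Golgi transporter of the fucose donor, moved the opposite way, at 0.42 and -0.37 with adjusted p of 9.43e-06 and 5.60e-04. POFUT2, which fucosylates proteins, had -0.16 and 0.28, with adjusted p of 0.0275 and 8.58e-04. FUK, the kinase that salvages fucose, fell in the SLC30A10 knockout by 0.43 on the log2 scale (adjusted p = 3.01e-05 by edgeR) and was at 0.15 in the second knockout (adjusted p = 0.179). None of these 4 fell in both knockouts. The control sets differed in FUT11 and SLC35C1 as well, at -0.28 and 0.28 (adjusted p = 0.0167 and 0.00251 by edgeR), SLC30A10 control minus second control. By mean level, neither knockout lay between the control sets for either gene.

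Around PRRX1, 11 mesenchymal factors and markers were tested, with 4 lower and 1 higher in the SLC30A10 knockout and 2 lower and 5 higher in the second knockout. PRRX2, the paralog of PRRX1, was at 0.07 ± 0.12 (SE, adjusted p = 0.675 by edgeR) in the SLC30A10 knockout and fell by 0.65 on the log2 scale in the second knockout (SE 0.13, adjusted p = 4.88e-04). TWIST2, a mesenchymal factor of low level, rose by 1.41 in the SLC30A10 knockout, from 1.55 ± 0.237 to 4.14 ± 0.157 CPM, and fell to 0.246 ± 0.160 CPM from 2.03 ± 0.254 CPM in the second knockout, with adjusted p of 1.65e-07 and 6.77e-09 by edgeR. The mesenchymal products VIM, FN1 and CDH2 had log2 differences of -0.82, -1.44 and -0.78 in the SLC30A10 knockout, all called lower. In the second knockout VIM and CDH2 were called higher at 0.26 and 0.22, and FN1 was at 0.16 with an adjusted p of 0.306. ZEB1, a repressor of epithelial genes, rose in the second knockout by 0.37 (adjusted p = 1.08e-07) and was at 0.02 in the SLC30A10 knockout (adjusted p = 0.749). The loss of PRRX1 in both knockouts thus stood beside changes of opposite sign in VIM, CDH2 and TWIST2, each against its own control set. The control sets differed in VIM and CDH2 by more than the rises in the second knockout. These differences were 0.41 and 0.38 (adjusted p = 5.61e-05 and 3.20e-06 by edgeR), SLC30A10 control minus second control. By mean level both genes were lower in the second knockout than in the SLC30A10 control set. FN1 differed between the control sets by more than VIM or CDH2, at 0.85 (adjusted p = 1.37e-07 by edgeR). Control means of FN1 were 112 CPM (SLC30A10) and 62.4 CPM (second), and the SLC30A10 knockout lay below both, at 41.5 CPM. The size of the FN1 fall thus depends on the control set used. TWIST2 did not pass between the control sets (-0.39, adjusted p = 0.112).

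Around TRPC4, 11 genes of calcium entry were tested, with 1 lower and 6 higher in the SLC30A10 knockout and 1 lower and 1 higher in the second knockout. STIM2, a calcium sensor of the endoplasmic reticulum, fell by 0.46 on the log2 scale in the SLC30A10 knockout (SE 0.07, adjusted p = 6.82e-06 by edgeR), where the channel subunit ORAI2 and the calcium release channel ITPR2 both rose by 0.31. None of these 3 passed in the second knockout, where ITPR1 rose by 0.30 (adjusted p = 0.0186). The control sets differed in ITPR2 by more than its rise, at -0.41 (adjusted p = 1.48e-06 by edgeR), SLC30A10 control minus second control. The mean of ITPR2 in the SLC30A10 knockout, 104 CPM, lay between those of the control sets, 83.9 and 111 CPM. STIM2, ORAI2 and ITPR1 did not pass between the control sets.

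Around WBP5, 8 genes of the TCEAL and BEX family were tested, with none lower and 6 higher in the SLC30A10 knockout, beside 21.2% of all tested genes called higher there. This was not particular to the family. Of the 482 other tested genes placed on the X chromosome, 335 (69.5%) were called higher and 27 lower in the SLC30A10 knockout, with a median log2 difference of 0.36, against 20.3% higher and a median of -0.01 over 13636 autosomal genes. This comparison was chosen after the values were seen. In the second knockout 2 were lower and 1 higher, beside 7.03% and 6.67% of all, and the other X chromosome genes had a median of -0.01. While WBP5 went to at most 1 count, BEX5 rose by 0.68 (SE 0.10), BEX4 by 0.46 (SE 0.06), TCEAL4 by 0.32 (SE 0.04) and NGFRAP1 by 0.19 (SE 0.04) on the log2 scale in the SLC30A10 knockout, with adjusted p from edgeR of 5.54e-06, 1.01e-06, 1.48e-06 and 4.50e-04. In the second knockout, TCEAL2 fell by 0.81 (adjusted p = 8.96e-05) and NGFRAP1 by 0.19 (adjusted p = 0.00146), and BEX4 rose by 0.18 (adjusted p = 0.0385). The control sets differed in TCEAL2 by nearly as much, at -0.79 (adjusted p = 5.59e-05 by edgeR), SLC30A10 control minus second control. TCEAL2 averaged 6.92 CPM in the second control set, 3.95 CPM in the second knockout and 3.99 CPM in both SLC30A10 groups. BEX4 and BEX5 differed between the control sets too, at -0.39 and -0.47 (adjusted p = 2.70e-05 and 8.28e-04 by edgeR). The mean level of NGFRAP1, the family member next to WBP5 on the X chromosome, stayed between 119 and 161 CPM in all groups.

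Around IAH1, 10 esterases were tested, with none lower and 2 higher in the SLC30A10 knockout and 1 lower and 1 higher in the second knockout. CES3, a carboxylesterase, rose in both, from 4.38 ± 0.398 to 8.57 ± 1.05 CPM and from 5.29 ± 0.376 to 8.21 ± 0.717 CPM (SD, n = 4 each), with adjusted p of 8.43e-08 and 1.11e-04 by edgeR. CES2 was at -0.09 and -0.18, past the threshold in the second knockout (adjusted p = 0.0463) and not in the SLC30A10 knockout (adjusted p = 0.278), and the thioesterase LYPLA1 rose in the SLC30A10 knockout by 0.22 (adjusted p = 1.80e-04).

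Around NCR3LG1, 10 ligands of natural killer cell and T cell receptors were tested, with none lower and 3 higher in the SLC30A10 knockout and 1 lower and 1 higher in the second knockout. The stress ligand ULBP2 rose by 0.48 in the SLC30A10 knockout (adjusted p = 0.00300 by edgeR), and its relative ULBP1 rose by 0.44 in the second knockout (adjusted p = 0.0152), where its libraries were widely spread at 89.1 ± 26.5 CPM (SD, n = 4). CD276, of the same B7 family as NCR3LG1, rose by 0.13 in the SLC30A10 knockout (adjusted p = 0.00627), as did HLA-E by 0.54 (adjusted p = 0.0313). HLA-E was low, at 1.92 and 2.79 CPM in the SLC30A10 control and knockout and 2.90 and 2.87 CPM in the second pair. The control sets differed in HLA-E by more than its rise, at -0.59 (adjusted p = 0.0179 by edgeR), SLC30A10 control minus second control. PVRL2 fell in the second knockout by 0.23 on the log2 scale (adjusted p = 0.00142). No tested ligand in this list was called lower in both knockouts.

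Around STXBP2, 17 Sec1/Munc18 proteins and SNARE partners were tested, with 4 lower and 5 higher in the SLC30A10 knockout and 3 lower and 3 higher in the second knockout. STXBP6, which binds SNAREs without being a Sec1/Munc18 protein, was barely expressed in the control sets, at 0.122 ± 0.0498 and 0.227 ± 0.134 CPM. It reached 0.899 ± 0.166 CPM in the SLC30A10 knockout and 3.14 ± 0.558 CPM in the second knockout (SD, n = 4 each), and was called higher in both, with adjusted p of 4.13e-06 and 3.95e-11 by edgeR. The syntaxin STX3, which STXBP2 is known to bind, rose by 0.17 in the SLC30A10 knockout and fell by 0.31 on the log2 scale in the second knockout. RAB27A, a regulator of granule docking, had 0.31 and -0.21, each against its own control set. Both genes also differed between the control sets, at -0.39 and -0.26 for SLC30A10 control minus second control. The adjusted p were 1.72e-07 and 0.00155 by edgeR. By mean level, STX3 in both knockouts lay between the control sets. RAB27A lay between them in the second knockout and above both in the SLC30A10 knockout. SCFD1 fell by 0.41 and VAMP7 rose by 0.48 in the SLC30A10 knockout, and neither passed in the second knockout.

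Around KLF4, 17 Krüppel-like and pluripotency factors were tested, with 5 lower and 8 higher in the SLC30A10 knockout and 3 lower and 4 higher in the second knockout. KLF2, its close relative, rose in both, by 0.63 ± 0.15 and 0.75 ± 0.14 (SE), with adjusted p of 0.00128 and 3.27e-04 by edgeR. KLF13 was at 0.36 and -0.31, each against its own control set. The control sets differed in KLF13 by a similar amount, at -0.39 ± 0.06 (SE, adjusted p = 1.80e-05 by edgeR), SLC30A10 control minus second control. Mean levels of KLF13 were 50.2 and 64.4 CPM in the SLC30A10 control and knockout, and 65.7 and 52.9 CPM in the second pair. POU5F1, a pluripotency factor, rose by 0.56 in the SLC30A10 knockout (adjusted p = 3.37e-05), and MYC rose by 0.43 in the second knockout (adjusted p = 6.73e-05). LIN28A, an RNA-binding protein of pluripotent cells, fell in both, from 13.2 ± 2.27 to 7.22 ± 0.486 CPM and from 2.60 ± 0.702 to 0.168 ± 0.125 CPM (SD, n = 4 each). Its control sets differed as well, by 2.35 ± 0.16 (SE, adjusted p = 1.82e-10 by edgeR) on the log2 scale.

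The genes next to each of the 8 on its chromosome were examined to ask whether a stretch of neighbours moved together. Of 80 neighbours, 5 tested genes on each side in RefSeq order, 36 (45.0%) were called in the SLC30A10 knockout, 14 lower and 22 higher, beside 41.4% of all tested genes. In the second knockout 12 (15.0%) were called, 8 lower and 4 higher, beside 13.7% of all. Both shares were near the background, and the medians were -0.01 and -0.02 on the log2 scale. Between the control sets 37 (46.2%) of the neighbours were called, beside 39.3% of all.

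**Figure D4:**
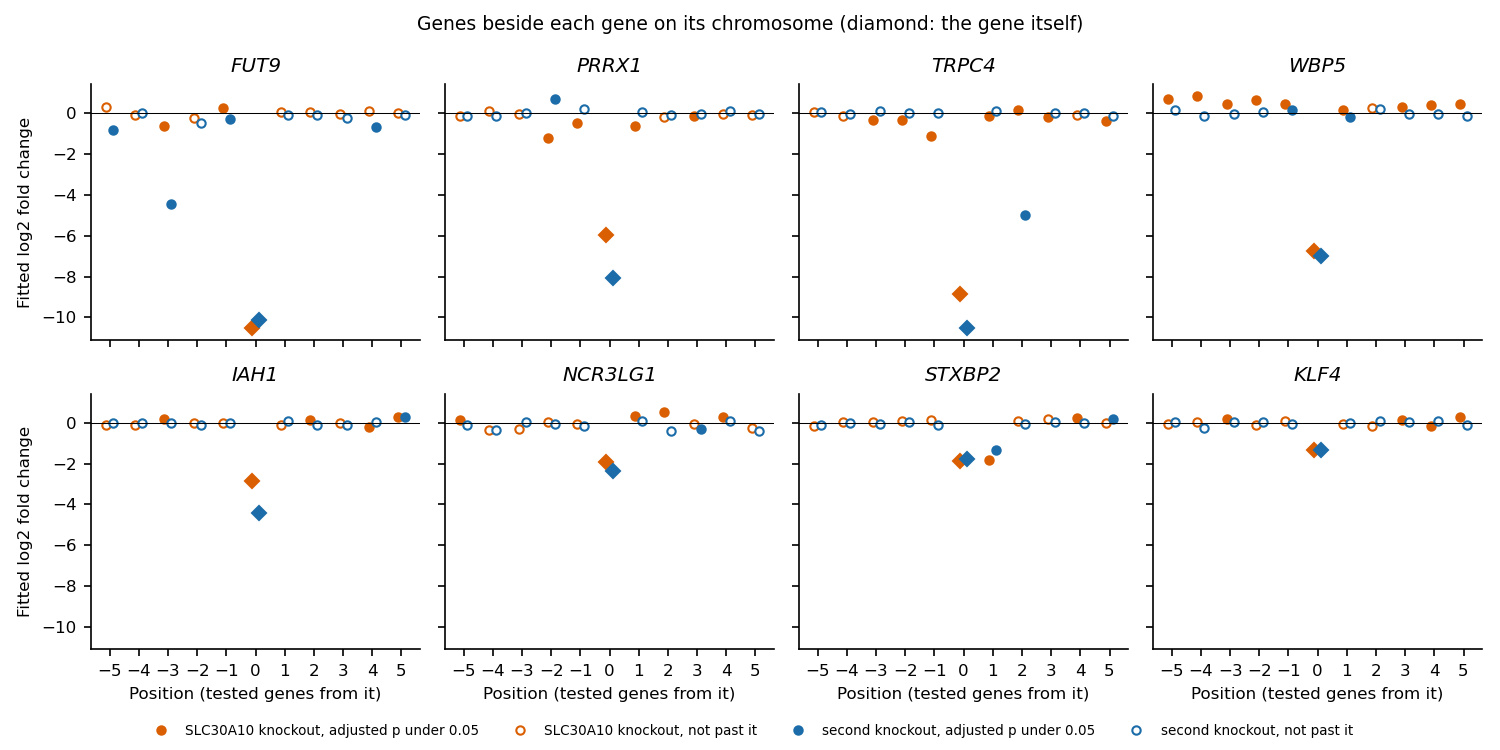
Fitted log2 fold change (vertical) of the 5 tested genes on each side of each gene, in chromosome order (horizontal), with diamonds for the gene itself and filled points for an adjusted p under 0.05. Each diamond lies below all neighbours of its panel in the same knockout. The lowest neighbours are EPHA7 beside FUT9 at -4.44 and FREM2 beside TRPC4 at -4.96, and PCP2 beside STXBP2 at -1.83 and -1.32 comes nearest to its diamond.

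In most places the nearest tested genes on each side did not follow, though some of them lay far away. CPSF3, a subunit of the machinery that cleaves pre-mRNA, ends 0.711 kb from IAH1 and was at -0.02 in both knockouts, with adjusted p of 0.706 and 0.771 by edgeR. ADAM17, a surface protease gene that overlaps IAH1 on the opposite strand, was at -0.10 and 0.07 and did not pass in either. NUCB2, 1.82 kb from NCR3LG1, did not pass in either knockout, and KCNJ11, 3.59 kb away, rose by 0.36 in the SLC30A10 knockout (adjusted p = 9.31e-04). The control sets differed in KCNJ11 by nearly as much, at -0.32 (adjusted p = 0.00354 by edgeR), SLC30A10 control minus second control. RAD23B, 153 kb from KLF4 on one side, was at 0.07 and -0.04. IKBKAP, 1378 kb away on the other, was at -0.04 and -0.02, and none of these values passed. MANEA, 407 kb from FUT9, had log2 differences of 0.26 and -0.26, both called, and UFL1, 306 kb from FUT9, passed in neither. The control sets differed in MANEA by a similar amount, at -0.25 (adjusted p = 0.00124 by edgeR), SLC30A10 control minus second control.

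WBP5 was low where the genes around it, and the X chromosome as a whole, were higher in the SLC30A10 knockout. There 9 of its 10 neighbours were called higher and none lower, with a median log2 difference of 0.45, beside 69.5% and a median of 0.36 for the other X chromosome genes. In the second knockout 1 was higher and 1 lower, with a median of -0.02. Several of these neighbours are TCEAL and BEX genes described above.

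Some neighbours changed by at least 2-fold. EPHA7, an ephrin receptor gene 2596 kb from FUT9, went from 8.82 ± 0.453 to 0.397 ± 0.222 CPM in the second knockout and from 11.8 ± 0.821 to 7.69 ± 0.656 CPM in the SLC30A10 knockout (SD, n = 4 each), and was called lower in both. FREM2, an extracellular matrix gene 817 kb from TRPC4, fell in the second knockout from 66.5 ± 2.20 to 2.12 ± 0.251 CPM and rose by 0.15 on the log2 scale in the SLC30A10 knockout (adjusted p = 0.0458 by edgeR). KIFAP3, a kinesin-associated gene 578 kb from PRRX1, fell in the SLC30A10 knockout by 1.22 on the log2 scale and rose in the second knockout by 0.71. The nearest tested genes to PRRX1 on each side were GORAB at 109 kb and FMO4 at 575 kb. They fell in the SLC30A10 knockout by 0.48 and 0.63 (adjusted p = 4.14e-05 and 0.0232) and did not pass in the second knockout. The nearest tested genes to TRPC4 on each side were POSTN and UFM1. POSTN, 33.3 kb from TRPC4, was low at 12 to 17 counts in the SLC30A10 control set and 2 to 8 in the knockout (adjusted p = 0.0134), and had 0 counts in all 8 libraries of the second experiment. UFM1, 480.1 kb from TRPC4, fell by 0.14 on the log2 scale in the SLC30A10 knockout (adjusted p = 0.0366) and was at 0.12 in the second knockout (adjusted p = 0.163).

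STXBP2 was the gene with an overlapping neighbour that moved with it. PCP2, on the opposite strand, had 7 to 14 counts in the SLC30A10 control set and 1 to 4 in the knockout, and 15 to 26 and 6 to 13 in the second experiment. Its log2 differences of -1.83 ± 0.44 and -1.32 ± 0.29 (SE) passed, with adjusted p of 0.00151 and 0.00176 by edgeR. Whether strand was used in counting is not given in the sources used here. If it was not, reads of STXBP2 and PCP2 cannot be told apart where they overlap, and the same holds for IAH1 and ADAM17. PET100, which overlaps STXBP2 on the same strand, was at 0.14 and -0.10 and did not pass.

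The pattern of each gene over the 16 libraries was compared with that of all tested genes by Pearson's r of log2(CPM + 0.5). These correlations are a description over libraries that share 4 group means, and genes that fall in both knockouts correlate by that alone. FUT9 and TRPC4 were nearest to each other (r = 0.996), with GABRA5 (r = 0.996) and DCAF12L2 (r = 0.994) next for FUT9, and AMBN (r = 0.991) near TRPC4. Among the 3 nearest genes of PRRX1 were WBP5 (r = 0.993) and TRPC4 (r = 0.986). WBP5 was nearest to PRRX1 (r = 0.993), with ARHGAP20 (r = 0.980) also among its 3 nearest. PRRX1, WBP5 and ARHGAP20 shared a higher mean in the second control set than in the SLC30A10 control set, while FUT9, GABRA5 and DCAF12L2 had the reverse.

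Among the lowered genes, IAH1 and NCR3LG1 were near to each other (r = 0.982). IAH1 was also near C11orf70 (r = 0.980) and ZNF788 (r = 0.974), and NCR3LG1 was near SHISA2 and LOC101928464 (r = 0.983 each). These genes were lower in the second knockout than in the SLC30A10 knockout by mean level. TRPC4 was among the 3 nearest genes of STXBP2 (r = 0.984). KLF4 had looser neighbours, with LINC00693 at 0.959 and TRPC4 at 0.957. The choice of nearest genes rests on the measure. By Spearman's rho 6 of these 24 pairs were retained, and with an offset of 2 CPM 15 of 24.

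The sequence around each start was described in windows of 250 bases before to 50 bases after it, in RefSeq. All 8 genes were matched, with 2 windows each for IAH1 and STXBP2 and thus 10 windows in all. The window of PRRX1, both windows of IAH1 and the second of STXBP2 lie inside the gene spans given above, and not at their first base. The ratio of observed to expected CG over all 35114 windows had a median of 0.579 and quartiles of 0.229 and 0.856. The 4 genes at or near 0 counts in the knockouts had ratios of 0.516 (FUT9), 0.587 (PRRX1), 0.664 (TRPC4) and 0.481 (WBP5), around the median. The 4 lowered genes had 0.859 and 0.916 (IAH1), 0.928 (NCR3LG1), 0.965 and 0.854 (STXBP2) and 0.934 (KLF4), around or above the upper quartile. The ranges of these sets of 4 did not overlap. The split was seen in the data and not tested.

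**Figure D5:**
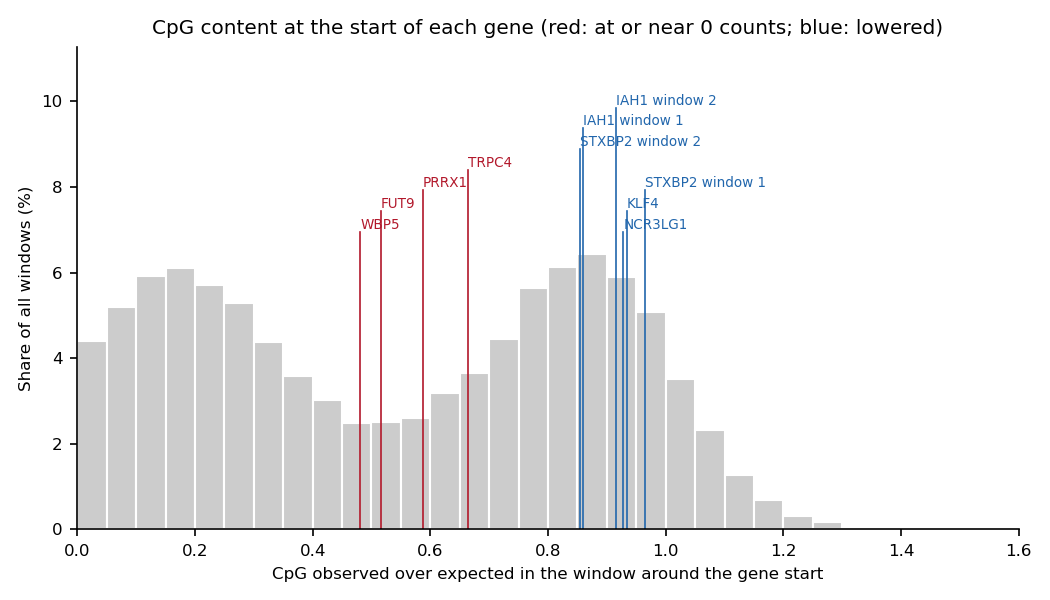
Ratio of observed to expected CG (horizontal) in 35114 windows around gene starts (grey bars, share of windows in percent), with a line at each window of the 8 genes, in red for the 4 at or near 0 counts and in blue for the 4 lowered. The red lines lie between 0.481 and 0.664 and the blue lines between 0.854 and 0.965; the heights of the lines carry no value.

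Exact matches to 5 short motifs were counted in the 10 windows on both strands. GGGCGG, the core bound by Sp factors, which itself holds a CG, was in 9 windows, all but that of PRRX1, and in 45.0% of all windows. CCAAT was in 2, those of PRRX1 and the first of STXBP2, and in 34.6% of all. TATAAA was in none and in 11.5% of all. The core of the metal response element, which the zinc-sensing factor MTF1 binds, was searched as TGCACNC and TGCGCNC, which cannot match at the same place on a strand. TGCACNC was in 3 windows, that of WBP5 and both of STXBP2, and in 12.1% of all. TGCGCNC was in 2, that of FUT9 and the second of STXBP2, and in 20.0% of all. A match is a description of these letters and not a binding site.

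The libraries were alike in depth, with 16058856 to 16648151 counts each, so that 3 counts correspond to 0.181 to 0.187 CPM. SLC30A10 itself had 6 to 9 counts in its control set and 3 to 11 in the knockout, 0.472 ± 0.0774 and 0.418 ± 0.217 CPM (SD, n = 4 each), within the spread of the libraries (exact permutation test, two-sided, p = 0.686, with 0.0286 the least that 4 against 4 can give). Its RNA level therefore does not check the label. HAP1 has no defining marker set. Of 8 blood cell markers, 6 had at most 3 counts in every library and HBG1 was at 0, and the summed level was 6.28 to 11.0 and 13.7 to 16.5 CPM in the SLC30A10 control and knockout libraries, and 11.7 to 14.1 and 7.57 to 9.10 CPM in the second control and knockout libraries, mostly from KIT. Of 6 fibroblast markers, 2 had at most 3 counts in every library, with LUM at 0, and the summed level was 33.5 to 44.5 CPM over all libraries, mostly from COL1A1. Of 5 epithelial markers KRT19 was at 0, and the sum was 47.8 to 55.5 and 56.7 to 64.1 CPM in the SLC30A10 experiment and 46.6 to 51.5 and 37.0 to 40.4 CPM in the second. The epithelial sums came mostly from KRT18 and KRT8. EPCAM went the other way, with mean levels of 1.22 and 0.263 CPM in the SLC30A10 control and knockout and 0.607 and 0.813 CPM in the second pair. THY1, of the fibroblast list, was higher in both knockouts, at 1.67 and 3.93 CPM and at 0.683 and 3.47 CPM. The markers of a list thus did not move together, and their part in the falls of the 8 genes was not tested.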

How the data were processed

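Poly-A selected RNA of 16 HAP1 libraries was analysed, grouped by the genotype in the labels. The gene deleted in the second knockout and a few other genes are not reported here. The authors deposited whole-number counts per gene symbol (33121 entries) and a table of normalized signal, which equals each library's counts multiplied by a constant between 0.980 and 1.014, within 5.06e-06, and served as an alternative scaling. The submitters' processing notes name HISAT2, featureCounts, DESeq2 and the hg38/GRCh38 build, without versions. The annotation and the use of strand are not given in the sources used here.

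Counts were fitted with edgeR 4.0.16 in R 4.3.3, as a mean for each of 4 groups over all 16 libraries with TMM scaling. The low-count filter of edgeR (at least 10 counts in enough libraries, 15 in total) left 15569 genes. Quasi-likelihood F tests were adjusted by Benjamini-Hochberg over all of them, with a threshold of 0.05, and tested on simulated data. SE is the fitted log2 difference divided by the square root of F. Levels are CPM on TMM-scaled totals, as mean ± SD. Groups with all libraries at 0 were set at 3 counts per library, and groups with 1 to 3 counts at most were given ratios of summed counts with exact 95% intervals. Library totals ranged from 16058856 to 16648151 counts. Reads carry no stated molecular identifiers, so intervals and floors cover counting error only. Replicate pairs differed by 1.60 to 6.43 in chi-square per degree of freedom, above sampling noise, and no library was counted as a repeat.

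RefSeq order (GRCh38.p14) placed 91.0% of tested genes, and promoter windows came from RefSeq, with untranslated exons of GENCODE left out of the printed sequence. Named genes are the 8 genes, SLC30A10 and up to 3 relatives per list and knockout, by smallest adjusted p. They also include the nearest tested gene on each side and neighbours changed at least 2-fold. The 3 genes of most similar pattern and the next 5 in the order of falls complete them. The relative of highest protein identity was not identified, as no protein sequences were used here. The members and the lists were chosen with earlier results of these data known. Alternatives were other scalings (median-of-ratios factors, library totals, the deposited factors), no low-count filter, the DESeq2 1.42.0 Wald test, stricter thresholds, pooled control sets, fits of only the 8 libraries compared, the replicate number as a block, other neighbour distances, and each library left out. Analyses in Python 3.11.15 used SciPy 1.17.1.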

Additional observations from a re-analysis of the deposited data

Results flagged for a closer look

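Over the 24 groups of 4 libraries in which a gene had counts to compare, a library stood apart by Dixon's ratio at its 95% limit in 2, where chance gives 1.20. FUT9 was at 13.2 CPM in library 4 of the SLC30A10 control set, above the other 3, which lay at 10.2 to 10.6 CPM. STXBP2 was at 4.96 CPM in library 4 of the second knockout, above the other 3 at 3.99 to 4.12 CPM.

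Among the 56 relatives and neighbours named, the effects of the knockouts differed past the threshold in 40 by edgeR's test of the difference, beside 31.3% of all tested genes, and by at least 2-fold in 7. The log2 differences, SLC30A10 effect minus second effect, were 5.11 ± 0.12 for FREM2, 4.42 ± 0.33 for TWIST2, 3.83 ± 0.23 for EPHA7 and 3.01 ± 0.43 for LIN28A, with the lower effect in the second knockout. They were -1.93 ± 0.07 for KIFAP3, -1.59 ± 0.13 for FN1 and -1.08 ± 0.10 for VIM (SE), with the lower effect in the SLC30A10 knockout. The adjusted p of these 7 by edgeR ranged from 3.93e-22 for FREM2 to 4.28e-06 for LIN28A. The named genes were chosen partly for small p in either knockout, so their share is no measure of all relatives.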

How the results depend on the processing

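Of 256 fold changes of the 8 genes recomputed under the alternatives, 0 reversed and 30 moved by more than the spread between replicates, 29 of them for FUT9, PRRX1, TRPC4 or WBP5, whose values rest on 0 to 3 counts per library. With a fold of at least 2 added, calls numbered 702 in the SLC30A10 knockout, 358 in the second knockout, 858 for the difference of effects, 218 between control sets and 67 lower in both knockouts; relatives called numbered 4 and 3, and neighbours 3 and 3. At an adjusted p under 0.01 calls numbered 1229 in the second knockout, 18 among its relatives and 170 lower in both. Against both control sets pooled, 5341 genes were called in the second knockout, 30 of its neighbours, and 632 lower in both, and the SLC30A10 level difference (knockout minus control) changed from -0.0541 to 0.053 CPM, with exact permutation p of 0.686 and 0.590. The cause was not tested. With 10 genes on each side, which adds genes, 75 and 25 neighbours were called. Of the 24 most similar genes, 6 were retained by Spearman's rho and 15 with an offset of 2 CPM. Leaving out each library in turn, which removes samples, gave 5657 to 6154, 1570 to 2146, 4442 to 5044 and 5053 to 6125 calls for the 4 comparisons, 238 to 326 genes lower in both, 45 to 52 and 22 to 30 relatives, and 31 to 36 and 8 to 13 neighbours. The control set difference of KLF4 ranged from -0.15 to 0.11 and changed sign to 0.11 without SLC30A10 control library 3 and to 0.00 without second control library 3. Libraries with the same number shared little of their deviations by mean correlation (-0.0361, 0.0591 and 0.0278), with single pairs from -0.117 to 0.148. Pairs of unlike number were not compared, so these values do not decide whether a number marks a shared batch. With the replicate block, calls numbered 6497, 2160, 4882 and 6181 for the 4 comparisons, and no count moved by over 1.5 times. At this depth a gene under 3 counts in a library could not be told from absence.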
